A study of Mus musculus with 6 samples.

Results

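The genes described here encode the proteins of the cytoplasmic ribosome, and they were measured in regulatory T cells labelled as deficient (CKO) or sufficient (Ctrl) in the transcription factor Blimp1, the product of Prdm1. They were chosen by symbol: Rpl or Rps followed by a digit, or Rplp0, Rplp1, Rplp2 or Rpsa, leaving out the Rps6k kinases, pseudogenes and probes with several symbols. The rule found 64 genes on 95 of the 45281 probes of the array, and 57 of them were among the 9589 genes that could be tested. These comprised 20 genes of the small (40S) subunit, 32 of the large (60S) subunit, the 3 paralog forms Rpl22l1, Rpl36al and Rps27l, and 2 genes whose symbols fit the rule although their products are not subunit proteins, Rpl7l1 and Rps19bp1. The remaining 7 genes, Rpl17, Rpl39l, Rpl3l, Rps20, Rps23, Rps23rg1 and Rpsa, had no probe above background on 2 or more arrays. Several further ribosomal proteins, among them Rpl5, Rpl11 and Rps27, have no named probe in the annotation used here.

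The RNA of 3 CKO and 3 Ctrl pTreg samples was hybridized to Illumina MouseWG 6v2 bead arrays, 1 array a sample. CKO cells came from C57BL/6 Prdm1flox/flox CD4-Cre+ mice and carry Thy1.2, and Ctrl cells came from Prdm1+/+ CD4-Cre+ mice and carry Thy1.1. Both donors carry CD4-Cre and a Foxp3-GFP reporter, and were 8 to 10 weeks old. Naive GFP-negative CD4+ cells of both genotypes, from pooled spleen and lymph nodes, were injected together into RAG1-/- mice, which have no T or B cells of their own. After 6 to 8 weeks the CD4+ GFP+ cells that had arisen from them (pTreg) were sorted apart by Thy1 allotype. CD4-Cre acts in all T cells from the thymus on, so the deletion preceded the transfer and is not specific to regulatory cells. The labels call the cells both peripheral Treg and iTreg, and those of replicates 2 and 3 add the letters P+I, which are not explained there. Separate days are labelled for replicates 2 and 3, and the study calls the replicates biological.

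CKO and Ctrl name the arrays by their labels. Prdm1 had intensities of 561, 341 and 704 in CKO and of 18.9, 50.9 and 49.2 in Ctrl replicates 1, 2 and 3, so that it was higher in CKO, against the direction of a deletion. The place of its probe relative to the deleted part was not known, so this level does not check the deletion. The study also reported Prdm1 as higher in Blimp1-deficient pTreg cells, and cites earlier work on its direct repression by Blimp1 in other settings. Il10, whose expression depends on Blimp1 in T cells, had intensities of 128, 99.2 and 106 in CKO and of 5935, 3203 and 5904 in Ctrl (log2 fold change -5.45 ± 0.30 SE, limma adjusted p = 0.0010). Foxp3, on which the cells were sorted, averaged 271 ± 142 in CKO and 278 ± 178 in Ctrl (SD, n = 3 each). Of 6 markers of regulatory T cells, 0 passed an adjusted p of 0.05 in limma without the replicate block and Ctla4 passed with it (adjusted p = 0.042). Ctla4, Ikzf2 and Tnfrsf18 were lower in CKO at the thresholds of the study defined below. Myeloid markers were present in both genotypes and differed mainly between replicates: S100a8 had intensities of 8260, 1083 and 15919 in CKO and of 14068, 1865 and 20847 in Ctrl. Of the 6 myeloid markers, 5 were tested and 0 differed between CKO and Ctrl in limma at an unadjusted p under 0.05 without the replicate block. With it 2 were lower in CKO at that level, S100a8 (pair log2 fold changes of -0.77, -0.78 and -0.39, adjusted p = 0.17) and S100a9 (-0.997, -0.17 and -0.81, adjusted p = 0.22). Cd14 (pair log2 fold changes of -1.25, 0.98 and -0.82) and Lyz2 (-1.43, 1.05 and -0.27) were higher in CKO in the pair of replicate 2 only. Among the myeloid markers, Itgam was not tested and Csf1r had intensities of 6.90 to 20.7. Of 4 erythroid markers 3 were tested. Hbb-bt had 1181, 942 and 2432 in CKO and 2058, 895 and 3103 in Ctrl, and Alas2 lay between 5.96 and 40.7. Of 4 NK and CD8 markers only Cd8b1 was tested, with 544, 625 and 934 in CKO and 656, 809 and 1031 in Ctrl. The part of other cell types in the results on ribosomal protein genes was not tested. Both arrays of replicate 1 lie on slide 1 and the other 4 on slide 2, and slide, replicate and the P+I label cannot be told apart.

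A ribosome is built from ribosomal RNA and a set of proteins, most of them present in a single copy, which join in the nucleolus before each subunit is exported. The small subunit reads the messenger RNA and the large subunit joins the amino acids. The messages of these proteins are among the most abundant in any growing cell, and most begin with a run of pyrimidines, the TOP motif, through which mTORC1 signalling controls their translation. In T cells, activation raises ribosome production ahead of division, and MYC and mTORC1 drive much of that increase. Free ribosomal proteins can bind MDM2 and stabilise p53 when assembly fails.

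Promoter tables of RefSeq (build GRCm38.p6) held 54 of the 64 genes, and the start site regions of 7 of them are printed because the results below turn on these genes. Each line gives 30 bases before the first listed transcription start and 20 from it on, 5′ to 3′ on the gene's strand, and capitals mark the longest uninterrupted run of C and T that reaches within 10 bases of the start.
Rps25 (chr9:44407684-44407733, plus strand): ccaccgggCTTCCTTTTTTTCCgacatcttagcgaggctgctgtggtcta
Rps6 (chr4:86857348-86857397, minus strand): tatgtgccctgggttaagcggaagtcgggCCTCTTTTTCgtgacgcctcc
Rpl7a (chr2:26910777-26910826, plus strand): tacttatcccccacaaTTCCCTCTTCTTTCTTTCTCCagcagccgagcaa
Rpl4 (chr9:64173357-64173406, plus strand): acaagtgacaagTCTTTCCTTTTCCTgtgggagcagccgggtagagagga
Rpl38 (chr11:114668550-114668599, plus strand): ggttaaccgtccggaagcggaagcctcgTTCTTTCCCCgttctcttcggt
Rplp2 (chr7:141447621-141447670, plus strand): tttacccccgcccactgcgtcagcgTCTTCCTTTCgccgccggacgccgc
Rpl10a (chr17:28328441-28328490, plus strand): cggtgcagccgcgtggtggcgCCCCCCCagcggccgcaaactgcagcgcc

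The run reached 21 bases in Rpl7a and 14 in Rps25 and Rpl4, and was 10 in Rps6, Rpl38 and Rplp2 but 7 in Rpl10a. In Rps25, Rpl4 and Rpl10a it ends before the listed start, so the listed message does not begin with it. A run of 10 or more that reached within 10 bases of the first listed start was found in 17 of the 54 genes (31.5%). The share was 7.08% of the 7864 tested genes and 6.83% of all 27025 genes with a promoter. Within the 300 bases around that start, searched on both strands, CCGGAAG, the core of ETS factor sites, was present in 22 of 54 (40.7%), against 19.2% of tested genes. GGGCGG, the core of Sp1 sites, was present in 63.0% of the members and 63.5% of tested genes, TATAAA in 9.26% and 7.91%, AAGATGG (the YY1 core) in 13.0% and 8.09%, and CACGTG, the E-box that MYC binds, in 9.26% and 10.3%. Of all 27025 genes with a promoter, 9.12% held CCGGAAG, 35.9% the Sp1 core, 14.2% TATAAA, 6.48% the YY1 core and 7.24% the E-box. Among the 49 tested members with a promoter, 32.7% had the long run, 40.8% CCGGAAG and 65.3% the Sp1 core. TATAAA was present in 10.2% of them, the YY1 core in 14.3% and the E-box in 10.2%. The long pyrimidine run and the ETS core were thus the features whose shares differed most from those of the tested genes. A match describes the letters only.

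The level of the members was first compared on each array. Values are normalized intensities, a relative scale, so that an equal change of all messages of a cell would not be seen, and levels of different genes depend on their probes as well as on their abundance. The median over the 57 genes was 7436, 9047 and 9405 on the CKO arrays and 7073, 9513 and 8815 on the Ctrl arrays, while the background level lay between 6.18 and 9.57. The median member lay at percentile 99.3 of all genes tested. Of the 50 brightest genes of an array, 23, 23 and 21 were members in CKO and 19, 24 and 22 in Ctrl. Ribosomal protein genes therefore filled a similar part of the top of all 6 arrays.

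**Figure D1:**
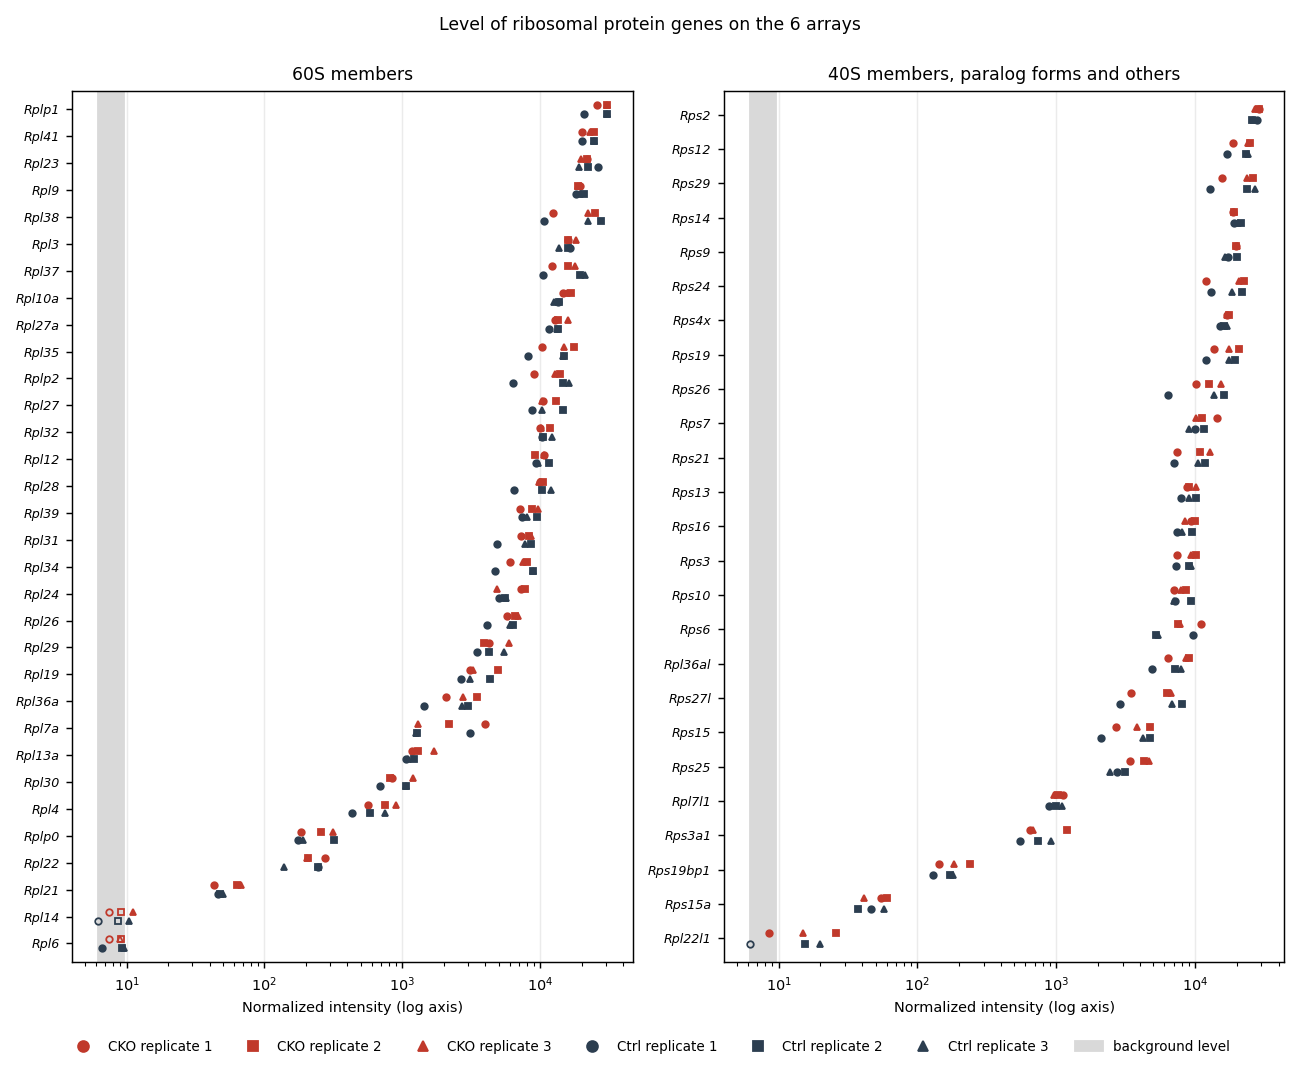
Normalized intensity (log axis) of the 57 tested genes on each array, 60S genes on the left and all others on the right, ordered by mean level; CKO arrays are red and above, Ctrl arrays dark and below, and open symbols lie at or under the background level of their array. Most genes lie above 1000, CKO and Ctrl symbols interleave, and Rpl6, Rpl14 and Rpl22l1 reach the grey band of background levels.

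Among the members, 25 had a mean intensity over 10000, 21 lay between 1000 and 10000, 6 between 100 and 1000, and 5 below 100. Rplp1, one of the acidic proteins of the stalk that recruits translation factors, was the brightest, with 25667, 30629 and 30629 in CKO and 20847, 30629 and 30629 in Ctrl. The value 30629 is the highest that normalization gives any probe, so Rplp1 was the brightest probe on all 4 arrays of slide 2 and a difference between those arrays could not be seen. Rps2, Rpl41, Rpl23 and Rps12 followed. Rps2, a protein of the messenger RNA entry region of the small subunit, had 28806, 28806 and 27120 in CKO and 27726, 25667 and 26150 in Ctrl. Rpl41, the smallest ribosomal protein, had 20180, 24440 and 22871 in CKO and 20180, 24752 and 24752 in Ctrl. The genotypes overlapped in all of these.

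At the lower end, Rpl6 was above background on 0 of 3 CKO and 2 of 3 Ctrl arrays, Rpl14 on 1 of 3 in each genotype, and Rpl22l1 on 3 of 3 CKO and 2 of 3 Ctrl arrays. Fold changes of these genes are set in part by the background level. Rps15a had intensities of 54.4, 60.1 and 41.0 in CKO and of 46.2, 37.2 and 57.6 in Ctrl, and Rpl21 of 43.4, 63.1 and 67.2 in CKO and of 45.8, 47.9 and 49.8 in Ctrl. The genotypes overlapped in both. Levels were not compared between genes further. Whether a probe also binds the many processed pseudogenes of this family was not tested.

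The question of the main comparison was whether these messages differed between the arrays labelled CKO and Ctrl. At an adjusted p under 0.05 over all 9589 genes, limma called 0 of the 57 genes, against 26 genes in all (0.271%). With the replicate number as a block it called 0 of 57, against 177 genes in all (1.85%). At an unadjusted p under 0.05, 1 member, Rps25, was higher and 0 were lower, against 3.36% and 4.69% of all genes, and with the replicate block the members gave the same counts, against 6.82% and 9.18%. At the thresholds of the study, a fold of 1.5 or more together with an unadjusted p under 0.05, 0 members were higher and 0 lower, against 3.09% and 4.34% of all genes. All log2 fold changes of the members lay between -0.10 (Rpl37) and 0.57 (Rps25), so that 0 of 57 reached 1.5-fold in either direction, against 1326 of 9589 genes.

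These counts do not show that the genotypes were alike. The 95% interval of the log2 fold change lay wholly inside 1.5-fold in both directions for 12 of 57 members and 574 of all genes, and with the replicate block for 30 and 2158. The median standard deviation within a genotype was 0.30 for the members and 0.35 for all genes on the log2 scale, and the median standard deviation of the 3 pair differences was 0.21 for the members and 0.33 for all genes. Brightness differs between these sets. In the 298 other genes at or above the lower quartile of member levels, the 2 medians were 0.26 and 0.20. Of these 298, 19 reached 1.5-fold. For the other 27 members a difference of 1.5-fold lies inside the interval in at least 1 direction even with the block.

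**Figure D2:**
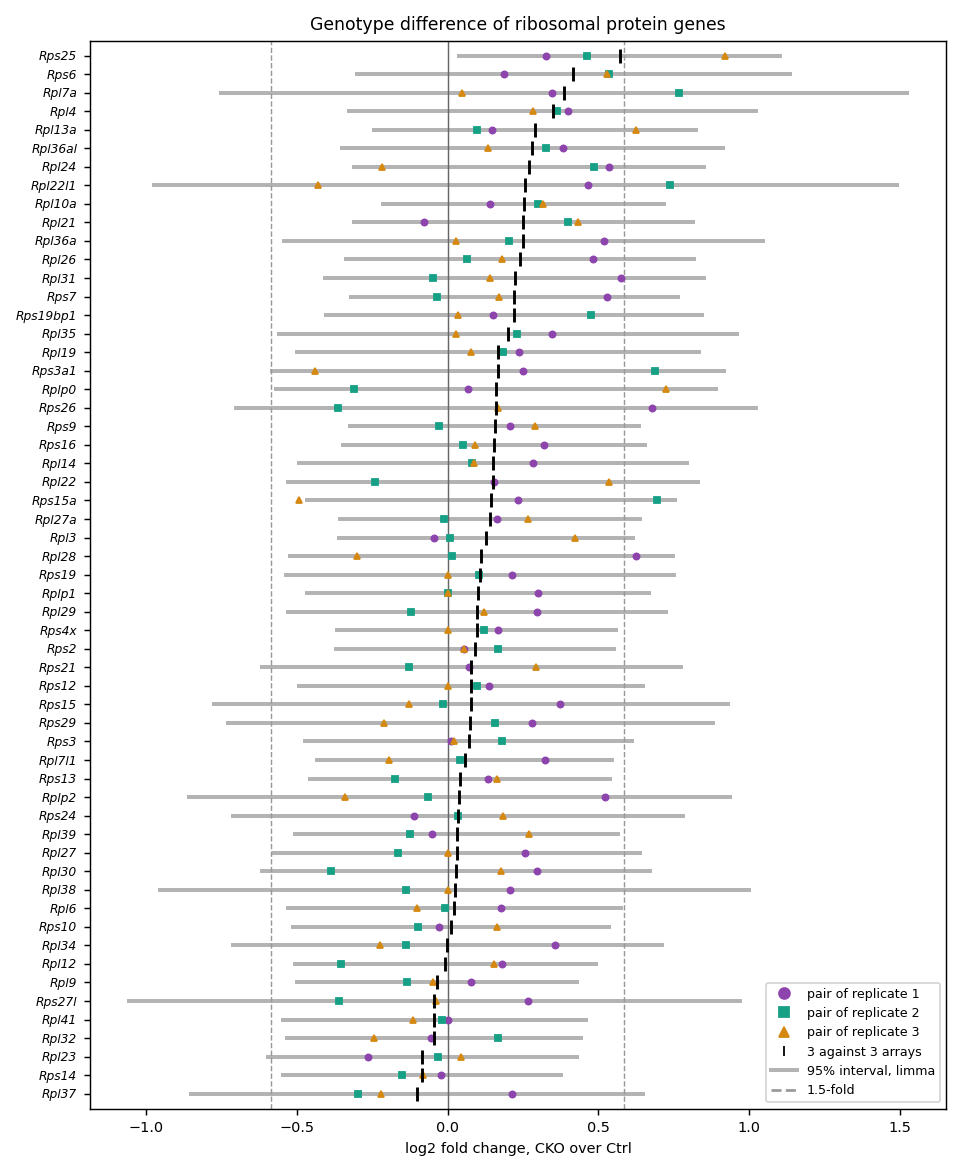
Log2 fold change of CKO over Ctrl (horizontal axis) for each of the 57 genes; the black tick is the value over 3 arrays a genotype, the grey bar its 95% interval from limma, coloured symbols the 3 pairs of one replicate number, and dashed lines mark 1.5-fold. All ticks lie between -0.10 and 0.57, and the interval of Rps25 alone lies to the right of 0.

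Rps25, a small subunit protein that initiation from some viral internal ribosome entry sites requires, had intensities of 3422, 4301 and 4615 in CKO and of 2727, 3118 and 2441 in Ctrl. Every CKO array lay above every Ctrl array. The log2 fold change was 0.57 ± 0.23 (SE), with a limma adjusted p of 0.55 and of 0.24 with the replicate block, and the pairs gave 0.33, 0.46 and 0.92. By distance from Thy1, Rps25 is number 15 of the 546 other tested genes of chromosome 9. The donors differ in their Thy1 allele, and how much of the neighbouring chromosome differs with it was not tested. Rps25 met the thresholds of the study without CKO replicate 1, without Ctrl replicate 2 and on slide 2 alone, and its genotypes overlapped when the values of the 2 slides were used as deposited or scaled to 1 median.

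Rpl10a, a protein of the L1 stalk near the exit site of transfer RNA, was the other gene whose groups did not overlap. It had 14745, 16744 and 15688 in CKO and 13372, 13614 and 12600 in Ctrl, a log2 fold change of 0.25 ± 0.20 (SE) with a limma adjusted p of 0.89. These 2 genes are the only members with all CKO arrays above all Ctrl arrays, against 5.95% of all genes, and 0 members had all CKO arrays below, against 7.08%. Rps14 counts as overlapping because its lowest Ctrl value equals its highest CKO value after normalization. With the deposited values or with scaling to 1 median, all CKO arrays of Rps14 lay below all Ctrl arrays.

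Rps6, the small subunit protein phosphorylated by S6 kinase, had intensities of 10974, 7584 and 7744 in CKO and of 9634, 5229 and 5371 in Ctrl. CKO was above Ctrl in each pair, by 0.19, 0.54 and 0.53 on the log2 scale, but the CKO arrays of slide 2 lay below the Ctrl array of slide 1. The log2 fold change was 0.42 ± 0.31 (SE, limma adjusted p = 0.87), and without Ctrl replicate 1 Rps6 met the thresholds of the study. Rpl7a, a large subunit protein whose gene also hosts small nucleolar RNAs, had 3967, 2176 and 1310 in CKO and 3118, 1278 and 1267 in Ctrl. It was higher in CKO in all pairs, and its pairs of 0.35, 0.77 and 0.05 differed more among themselves than those of Rps6.

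Rpl4 had 567, 754 and 905 in CKO and 429, 586 and 745 in Ctrl, with pair values of 0.40, 0.36 and 0.28. These were the most even pairs among the 5 members with the largest fold changes, yet the arrays of the genotypes overlapped, and both slide 1 arrays lay below all slide 2 arrays. Rpl13a, which in human monocytes takes part in silencing inflammatory messages outside the ribosome, had 1181, 1308 and 1707 in CKO and 1066, 1221 and 1108 in Ctrl. At the other end, Rpl37 had 12166, 15919 and 18044 in CKO and 10492, 19562 and 21052 in Ctrl. In Rpl37 the difference between slides was larger than that between genotypes.

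Genes whose products bear on T cell development or on assembly checkpoints were described next. Rps14 and Rps19, whose human counterparts are the genes of the 5q- syndrome and of Diamond-Blackfan anaemia, had log2 fold changes of -0.09 ± 0.20 and 0.11 ± 0.28 (SE). Rps14 had 18891, 19188 and 19188 in CKO and 19188, 21340 and 20289 in Ctrl, and was the only member with a lower CKO value in all 3 pairs. Rps19 had 13781, 20847 and 17401 in CKO and 11879, 19376 and 17401 in Ctrl.

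Rpl22, whose loss blocks the development of αβ T cells in mice, had 273, 207 and 202 in CKO and 245, 245 and 139 in Ctrl, and its near copy Rpl22l1 had 8.53, 26.0 and 14.9 in CKO and 4.62, 15.6 and 20.03 in Ctrl. The genotypes overlapped in both. Rpl36a and its retrogene form Rpl36al had log2 fold changes of 0.25 ± 0.34 and 0.28 ± 0.27 (SE). The p53-induced form Rps27l had 3472, 6265 and 6684 in CKO and 2887, 8046 and 6859 in Ctrl. Rps4x had 17015, 17401 and 16902 in CKO and 15144, 16015 and 16902 in Ctrl, and Rpl3, Rpl26 and Rpl39, the parent genes of further paralogs, had log2 fold changes of 0.13, 0.24 and 0.03. None of the named paralog forms or parents passed the limma test, whose lowest adjusted p among them was 0.91.

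The 3 stalk genes measured differed more between slides than between genotypes. Rplp0, the base of the stalk, had 185, 255 and 312 in CKO and 176, 317 and 189 in Ctrl. Rplp2 had 9088, 13903 and 12817 in CKO and 6325, 14556 and 16215 in Ctrl, a log2 fold change of 0.04 ± 0.39 (SE), and both of its slide 1 arrays lay below all 4 arrays of slide 2.

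Although no single gene passed, most members had a fold change a little above 0. The median log2 fold change was 0.11 for the 57 genes, 0.09 for the 40S and 0.12 for the 60S genes, against 0.02 for all genes tested. The value was above 0 in 48 of 57 members, against 5024 of 9589 genes. The shift was largest in the pair of replicate 1. By pair, in the order of replicates 1 to 3, the members had medians of 0.21, 0.01 and 0.05, against 0.07, 0.04 and -0.07 for all genes, and 48, 30 and 34 members were above 0. Without Ctrl replicate 1 the median over members was -0.05, with 23 of 57 above 0, against -0.03 for all genes. On slide 2 alone it was 0.07, with 36 of 57 above 0, against -0.01 for all genes. Higher in CKO in all 3 pairs were 16 of 57 members, against 1871 of 9589 genes. The 298 other genes at least as bright as the lower quartile of the members had a median of 0.01.

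The genotype effect was also compared between slides. Over the members the median log2 fold change was 0.07 on slide 2 alone and 0.21 in the only pair of the other slide. Over all genes tested these medians were -0.01 and 0.07. The other slide holds no replicate arrays of either genotype, so a test could not decide whether the genotype effect differed between slides.

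The larger contrast in these genes was that between the slides. The mean of the 4 arrays of slide 2 was above that of the 2 arrays of slide 1 in 48 of 57 members, by a median of 0.37 on the log2 scale, against 5513 of 9589 genes and a median of 0.09. In 31 members every slide 2 array lay above both slide 1 arrays and in 3 every one lay below, against 2022 and 869 of all 9589 genes. The difference between slides exceeded that between genotypes in 44 of 57 members and in 5694 of 9589 genes. These are descriptions, since each slide holds other replicates.

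**Figure D3:**
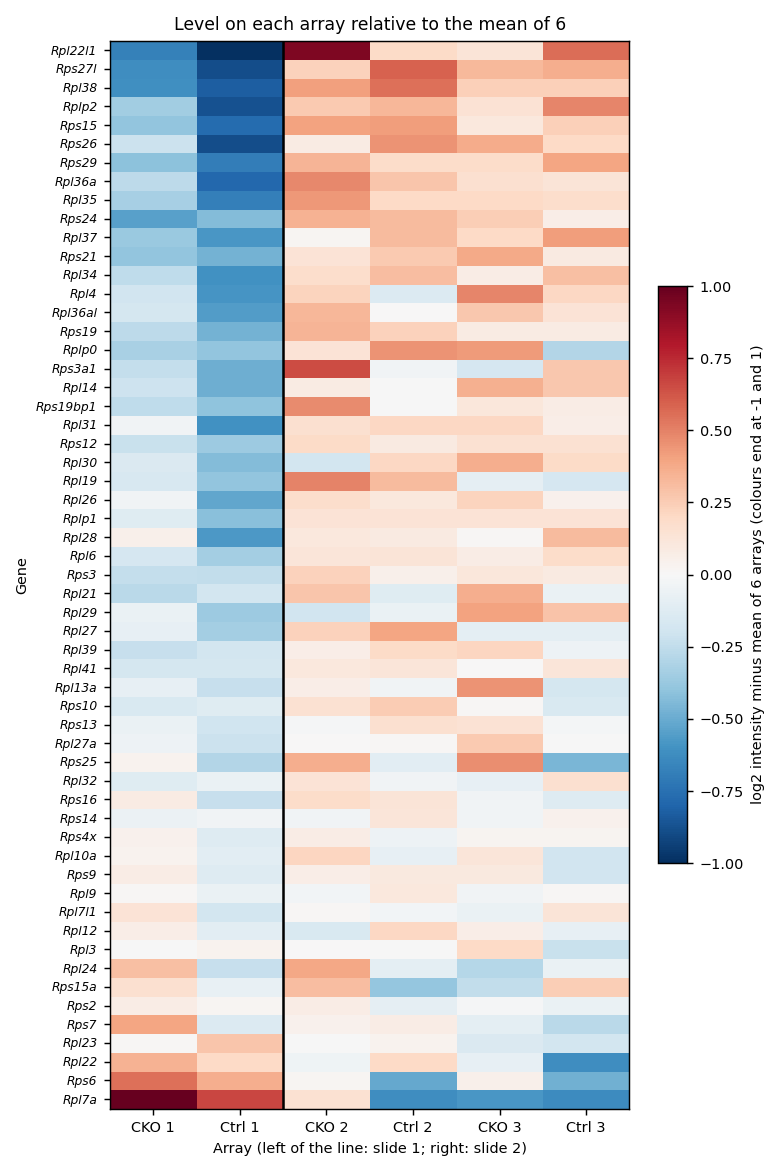
Log2 intensity of each member on each array minus its mean over the 6 arrays (colour, ending at -1 and 1), with genes ordered by the difference between slides, largest at the top, and CKO left of Ctrl for each replicate. Most rows are blue on both arrays of slide 1, left of the line, and red on slide 2, while Rps6 and Rpl7a at the bottom show the reverse.

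Members differed widely in this contrast. Rpl38, a 60S protein required for the translation of Hox messages in the mouse embryo, had intensities of 12356, 25206 and 22318 in CKO and of 10715, 27726 and 22318 in Ctrl, a difference of 1.08 between slides and of 0.02 between genotypes. Rps27l, Rplp2 and Rps15 had slide differences of 1.13, 0.92 and 0.87, and Rps15 had 2700, 4700 and 3823 in CKO and 2085, 4748 and 4181 in Ctrl. Rpl7a and Rps6 went the other way, by -1.26 and -0.69. The 298 other bright genes showed no such lean, with 54 whose slide 2 arrays were all higher, 50 whose slide 2 arrays were all lower, and a median of -0.05. The lean was not particular to the cytoplasmic genes. Of 72 mitochondrial ribosomal protein genes, 27 had all slide 2 arrays higher and 5 all lower. Their median slide difference was 0.23, with 56 above 0. Of 78 ribosome biogenesis genes these counts were 11 and 7, with a median of 0.10.

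The pyrimidine run and other probes of the same genes were set beside these differences. The 16 tested members with a run of 10 or more had a median log2 fold change of 0.18 (0.01 to 0.57), and the 33 with a shorter one a median of 0.09 (-0.10 to 0.28). Above 0 were 16 of 16 members with the long run and 26 of 33 with a shorter one, by the first listed start. A run of 10 or more near any listed start was also counted, a choice made after seeing the data. By that count 17 of 18 and 25 of 31 were above 0, with medians of 0.16 and 0.09. Rpl34, which has runs of 8 and 20 bases near its starts, was the member with the long run below 0. By pair the medians were 0.31, 0.10 and 0.07 with the long run and 0.21, -0.01 and 0.04 with a shorter one. The median slide difference was 0.41 with the long run and 0.37 with a shorter one. Rps25, Rps6, Rpl7a and Rpl4, the 4 largest fold changes, are all among the 16, though the runs of Rps25 and Rpl4 end before the listed start.

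Of the members, 17 had more than 1 kept probe. The fold changes of their probes lay within 0.60 of each other on the log2 scale (Rps24), and the sign differed between probes in Rpl23, Rpl27a and Rpl38. In Rps24 a dimmer probe gave 0.64 and the brightest gave 0.03.

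Other genes of ribosome production and translation were compared from lists written from general knowledge. Of 78 tested genes of ribosome biogenesis, 0 passed an adjusted p of 0.05 in limma in either direction, 69 had a value above 0 and the median log2 fold change was 0.23, with pair medians of 0.34, 0.03 and 0.30. Wdr43, a factor of the small subunit processome, had 1401, 1333 and 1216 in CKO and 817, 1041 and 863 in Ctrl. Every CKO array lay above every Ctrl array, with a log2 fold change of 0.54 ± 0.22 (SE, limma adjusted p = 0.53). All CKO arrays were higher in 11 of the 78 genes, against 5.95% of all genes, and lower in 0, against 7.08%.

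Of 72 mitochondrial ribosomal protein genes, which build the separate ribosome of that organelle, 0 passed, 54 were above 0 and the median was 0.15. Initiation factors had a median of 0.13 (26 of 33 above 0, 0 passed), with Pabpc4, a poly(A)-binding protein, at 0.49 ± 0.21 (SE, limma adjusted p = 0.59). Elongation and release factors had a median of 0.24, with 11 of 13 above 0 and 0 passing without the block. Gspt2, the eRF3b form of the release factor GTPase, had 51.4, 60.3 and 42.2 in CKO and 19.2, 20.9 and 11.3 in Ctrl, a log2 fold change of 1.62 ± 0.30 (SE) with a limma adjusted p of 0.11, and of 0.017 with the replicate block.

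**Figure D4:**
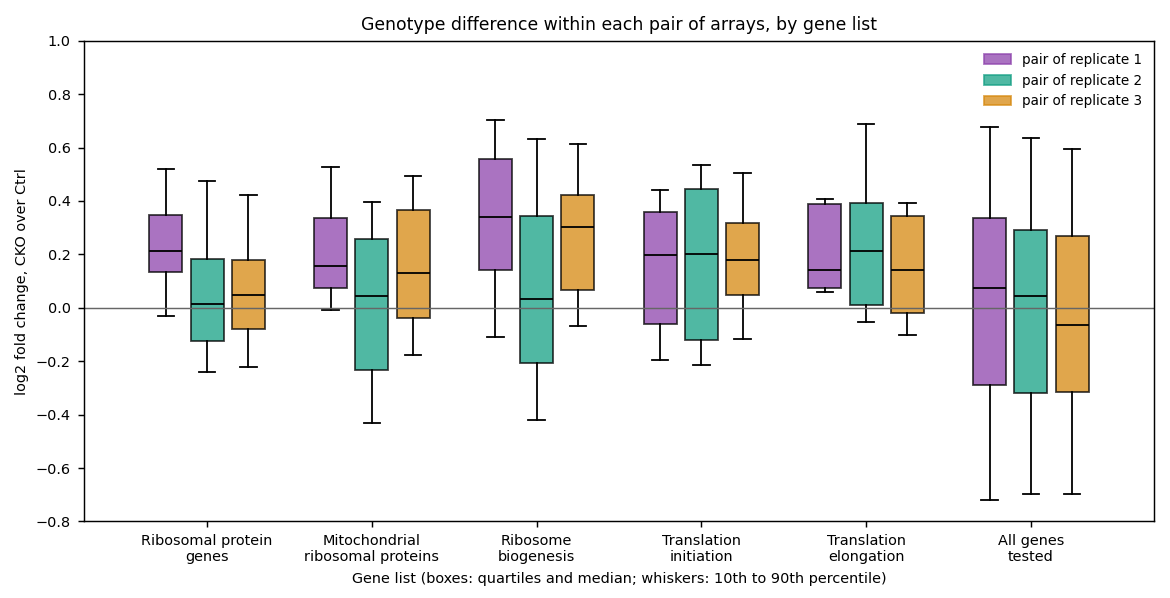
Log2 fold change of CKO over Ctrl within each pair of one replicate number (vertical axis) for the ribosomal protein genes, 4 related lists and all genes tested; boxes show the median and quartiles, whiskers the 10th and 90th percentiles. The ribosomal protein genes have pair medians of 0.21, 0.01 and 0.05, and their boxes are shorter than those of all genes tested.

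Of 21 tested genes of the mTORC1 and MYC pathways and of TOP message control, 0 passed in limma without the block, 10 were above 0 and the median was -0.08. Mxd1, which competes with MYC for MAX, had 144, 60.8 and 52.9 in CKO and 249, 236 and 225 in Ctrl, a log2 fold change of -1.61 ± 0.38 (SE) with a limma adjusted p of 0.19, and of 0.047 with the replicate block. Its relative Mxd4 had a log2 fold change of -0.98 ± 0.27 (SE, limma adjusted p = 0.29), and Myc itself had 134, 128 and 111 in CKO and 79.1, 119 and 61.2 in Ctrl. The genotypes did not overlap for Mxd1 and overlapped for Myc.

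Of 7 tested p53 target and ribosomal stress genes, 0 passed and 1 was above 0, with a median of -0.45. Sesn1, a p53-induced inhibitor of mTORC1, had 98.5, 84.1 and 58.5 in CKO and 277, 137 and 152 in Ctrl, a log2 fold change of -1.19 ± 0.34 (SE, limma adjusted p = 0.30). Of 9 genes often used as loading controls, 0 passed and 6 were above 0. Their values ran from -0.34 to 0.48, with a median of 0.22, which is larger than that of the ribosomal protein genes.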

How the data were processed

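The authors hybridized amplified total RNA to Illumina MouseWG 6v2 arrays, exported intensity values from Genome Studio and quantile normalized them. The deposited table holds linear intensity with values below 0, and sorted values are alike within a slide but not between slides, so the 2 slides had been normalized apart. Teff arrays are not analysed here.

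All 6 columns were quantile normalized again. Genes of olfactory and vomeronasal receptors (1503 probes) set the background of each array, at their 95th percentile. Lower values were raised to it before log2. Probes above background on at least 2 arrays were kept (17290, 14807 of them with 1 symbol), and the brightest stood for a gene. Of all probes, 34885 have 1 symbol, 18 several and 10378 none. Symbols of 34807 probes were matched through RefSeq GRCm38.p6, of which array probe coordinates are not given. The number of arrays limits the precision.

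CKO was compared with Ctrl by limma 3.58.1 (lmFit, eBayes) in R 4.3.3 without a block, with Benjamini-Hochberg adjustment over all genes. Replicate numbers pair the samples. The labels of replicates 2 and 3 share a day per number, and both arrays of replicate 1 share a slide. Deviations from group means correlated at 0.51, 0.49 and 0.56 over all genes between same-numbered arrays. Over the members alone these correlations were 0.84, 0.36 and 0.38. On slide 2 the members correlated at 0.52 between CKO 3 and Ctrl 2 and at 0.51 between CKO 2 and Ctrl 3. Their own values thus do not single out the pairing of replicates 2 and 3. Steps were tested on simulated data. Members and lists were chosen with earlier results of these data known. Named were the 5 brightest and 5 dimmest members, stalk genes, paralogs with their parents, Rpl22, Rps6, Rps14, Rps19, and the members passing a test (0). Rps25, Rpl10a, Rpl7a, Rpl4, Rpl13a, Rpl37, Rpl38, Rps15, Rps24 and, outside the members, Myc were added after their values were seen. Wdr43, Pabpc4, Gspt2, Mxd1, Mxd4 and Sesn1 were named for the smallest unadjusted limma p values of their lists, so they are extremes of those lists. Promoter strings were searched in RefSeq windows of 300 bases, 250 of them before the start.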

Additional observations from a re-analysis of the deposited data

How the results depend on the processing

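The ribosomal protein genes called at an adjusted p of 0.05 stayed at 0 in all 21 settings, the replicate block included, and the lowest adjusted p of a named member was 0.24. Of 594 alternative values of 31 named members, 538 kept their sign and 56 changed it with no call on either side. Part of the 538 could not change. The blocks, the variance trend and the omission of members near background leave each fold change as it is. Slide 2 alone and leaving out replicate 1 use the same arrays and count as separate settings. The count of all genes called, 26 here, was 177 with the replicate block, 16 with slide as a block, 0 on slide 2 alone, 48 with an offset of 50 in place of the floor, 151 with no filter on dim probes, and 0 to 14 when arrays or pairs were left out. Members at the thresholds of the study and higher, 0 here, numbered 1 on slide 2 alone (Rps25) and 0 to 1 when arrays or pairs were left out. Members whose genotypes did not overlap, 2 higher and 0 lower here, numbered 13 and 8 on slide 2 alone, where 2 arrays face 2 and 1470 and 1819 of 9589 genes did not overlap. They numbered 1 and 1 both with the deposited values and with scaling to 1 median, against 570 and 684 and 560 and 692 of 9592 genes. With the mean of all probes 4 were higher, against 624 genes. Leaving out arrays or pairs gave 2 to 13 members higher and 0 to 8 lower, against 920 to 1668 and 1032 to 1819 genes. The median of the 40S genes was 0.24 over second brightest probes and 0.20 in the slide 1 pair alone. Leaving out arrays or pairs gave medians of -0.050 to 0.20 for all members, -0.041 to 0.21 for the 40S and -0.057 to 0.19 for the 60S genes. The values below 0 are those without Ctrl replicate 1. Over all genes tested these medians ran from -0.034 (without Ctrl replicate 1) to 0.061 (without Ctrl replicate 3).

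The variance trend and the omission of the 3 members near background were chosen after seeing the data. Signal limits the 5 members with a mean under 100 and the 7 below background. Rplp1 sits at the highest normalized value on 4 arrays.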
